A study of Mus musculus with 9 samples.

Results

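The collagens, laminins and collagen-modifying enzymes of mouse liver were followed here, with the proteoglycans and glycoproteins that lie beside them, across livers with and without miR-122. Members were taken by gene symbol alone: every gene named as a collagen chain, laminin chain, nidogen, prolyl 4-hydroxylase, lysyl hydroxylase or lysyl oxidase, plus Hspg2, Sparc, Fbn1, Fn1, Lum and Bgn. That gave 74 of the 30519 entries listed, 1 transcript to a gene, which divide into 11 fibrillar collagens, 20 basement membrane genes, 27 other collagens, 11 enzymes and 5 matrix glycoproteins and proteoglycans. Of the 74, 33 had a mean of at least 1 over the 9 livers and were tested, and the other 41 lay under that filter. The study measured polyA RNA of flash-frozen liver from 4 miR-122 knockout (KO) mice and 5 floxed littermates that served as controls (WT), all 6 weeks old and untreated as far as the labels say. KO replicate 1 was female and KO replicates 2 to 4 were male, while WT replicates 1 to 3 were female and WT replicates 4 and 5 were male. Neither the driver of the deletion nor the cells it acts in is stated in the labels. The series asks which transcripts depend on miR-122, the leading microRNA of hepatocytes, and the same livers also went into Argonaute CLIP, which is not analysed here.

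Fibrillar collagens form the tensile fibres of the extracellular matrix and, in liver, come mainly from stellate cells and portal fibroblasts. Type IV collagen and laminins build the basement membrane sheets under ducts and vessels, with nidogens and perlecan as linkers. Newly made chains are hydroxylated on proline and lysine inside the cell, and the secreted fibres are then crosslinked by lysyl oxidases, which makes scar tissue stiff.

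Values are normalised transcript abundances per unit of transcript length, deposited for 1 transcript of each gene, so levels can be compared between genes but a change can belong to 1 isoform. Steps between low values put the depth at 15.1 to 21.7 M (mega) reads for KO livers and 12.0 to 19.2 M for WT livers, with both WT males lowest. Summed values were 0.711 to 0.869 M in KO and 0.873 to 1.17 M in WT livers, so the scaling was tried both as deposited and at equal totals. The label of WT replicate 3 says female and its column name says male; it was matched by mouse number, and the label was kept. miR-122 itself was not analysed here, and the genotypes rest on the labels. Each library is 1 animal, so p-values measure the spread between animals.

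Of the 33 tested members, 28 were higher in KO livers, 0 were lower and 5 did not pass the test (limma, Benjamini-Hochberg adjusted p at most 0.05). Over all 10950 transcripts tested, 21.4% were higher and 14.5% were lower, or 35.9% in either direction. The median log2 fold change, KO over WT, of log2(value + 1) was 1.10 over the tested members and 0.03 over all transcripts tested. In 28 of the 33 every KO liver lay above every WT liver, a pattern that 19.0% of all tested transcripts showed. At equal totals the medians were 1.32 and 0.36, and 32 of the 33 members, all but Lama4, were called higher, against 45.0% of all transcripts. Passing the filter is not neutral here: 11 of the 33 averaged under 1 in WT and at least 1 in KO livers, 0 the other way round, and of the 22 at 1 or above in both groups 18 were called higher. Among all 74, the KO mean was the higher one in 62, the lower one in 11 and equal in 1, which was listed at 0 in every liver. Markers of matrix-producing cells were higher in the same livers: the summed portal fibroblast markers were 20.6 to 29.7 in KO livers and 4.88 to 6.46 in WT livers, mostly Eln (7.28 to 9.93 in KO livers and 2.54 to 4.09 in WT livers without it), and the summed stellate cell markers 139.9 to 159 in KO livers and 85.9 to 117 in WT livers. This was not particular to those cells. Summed Kupffer cell and macrophage markers were 218 to 291 in KO livers and 143 to 201 in WT livers. Summed cholangiocyte and progenitor markers, mostly Spp1, were 561 to 935 in KO livers and 37.1 to 62.4 in WT livers. In bulk liver, more cells of a type and more RNA per cell cannot be told apart. The part of any of these cell types in the member differences was not tested.

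**Figure D1:**
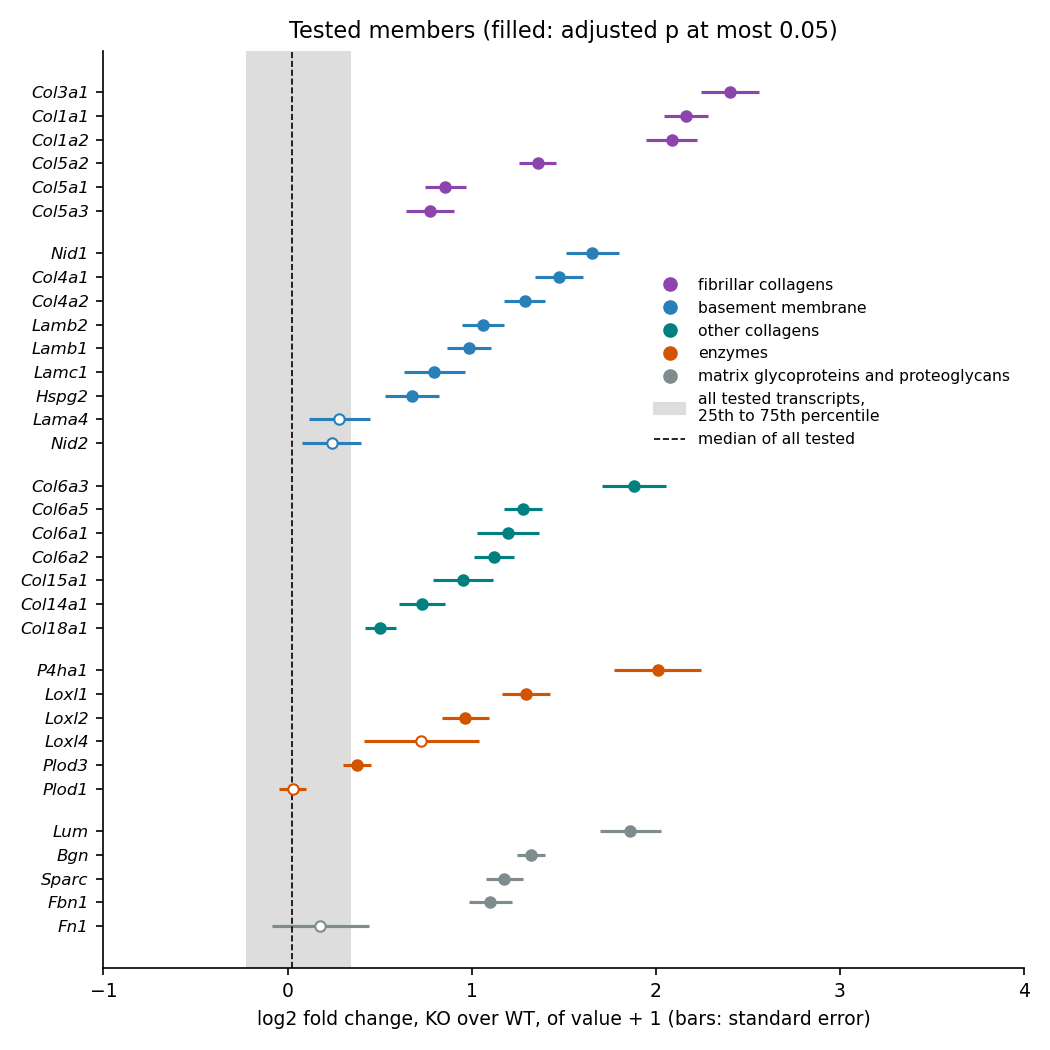
Log2 fold change (KO over WT, of value + 1) of the 33 tested members, by group, with standard errors; filled points passed limma at an adjusted p of 0.05, and the grey band and dashed line give the 25th to 75th percentile and the median (0.03) of all 10950 transcripts tested. The 28 filled points lie right of the band's median, and Lama4, Nid2, Loxl4, Plod1 and Fn1 are open.

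The fibrillar collagens had the largest median change of the 5 groups. All 6 that were tested were higher in KO livers, by 2.68-fold to 7.63-fold, and their median log2 fold change was 1.72. Among them Col5a1 and Col5a3 averaged under 1 in WT livers (0.946 and 0.531) and passed the filter through KO livers. Summed over the 11 fibrillar genes, the abundance was 73.5, 85.9, 102 and 87.4 in KO livers, against 19.1, 12.9, 16.6, 21.3 and 15.7 in WT livers. The ranges did not overlap, and the KO mean was 5.10 times the WT mean.

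Col3a1, the chain of type III collagen and the most abundant fibrillar transcript, stood at 42.3, 51.2, 58.9 and 50.1 in KO livers, against 10.0, 6.36, 8.44, 11.7 and 7.84 in WT livers. The lowest KO liver was above every WT liver. Its means were 50.6 ± 6.76 in KO livers and 8.87 ± 2.05 in WT livers (SD, n = 4 and 5), which is 5.71-fold, with a log2 fold change of 2.40 ± 0.16 (SE) and an adjusted p of 6.75e-06 (limma).

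Type I collagen, the main fibre of scar and bone, is built from the products of Col1a1 and Col1a2. Col1a2 had 15.4, 16.9, 22.3 and 20.1 in KO livers, against 4.13, 2.76, 3.89, 4.19 and 3.12 in WT livers, a 5.15-fold difference of means (adjusted p = 6.6e-06, limma). Col1a1 had 7.29, 8.51, 9.76 and 8.03 in KO livers, against 1.18, 0.754, 1.16, 1.49 and 0.923 in WT livers, which is 7.63-fold (adjusted p = 2.59e-06, limma), the largest fold in the group. For both genes the groups were fully apart, and KO replicate 3 was the highest liver.

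The type V chains co-assemble with type I collagen and limit fibre width. Col5a2 had 4.04, 3.90, 5.12 and 3.99 in KO livers, against 1.17, 0.889, 1.05, 1.20 and 0.919 in WT livers, a 4.08-fold difference (adjusted p = 1.35e-05, limma). Col5a1 had 2.39, 2.28, 3.20 and 2.26 in KO livers, against 1.19, 0.940, 0.929, 0.914 and 0.761 in WT livers, which is 2.68-fold (adjusted p = 0.000376, limma). Col5a3 ranged over 1.24 to 1.77 in KO livers and 0.385 to 0.894 in WT livers, or 3.03-fold (adjusted p = 0.00152, limma). All 3 kept the groups apart, with smaller folds than the chains of types I and III. Col5a3, at a mean of 1.01 over the 9 livers, lay just inside the filter, and Col13a1, at 0.989, just outside it.

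**Figure D2:**
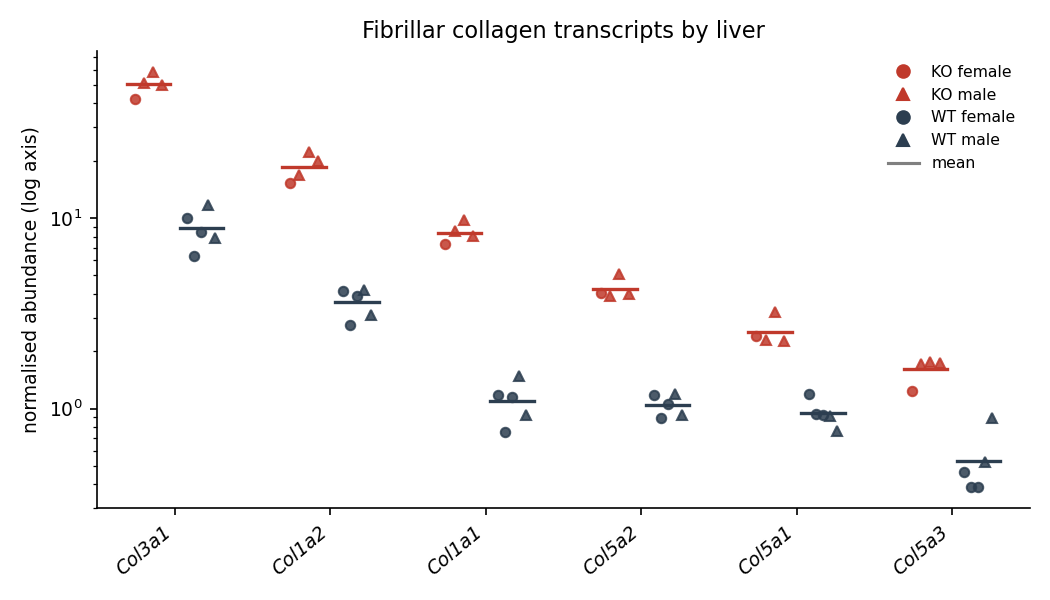
Normalised abundance (log axis) of the 6 tested fibrillar collagens in each liver, KO left of WT for each gene; circles are females, triangles males and bars group means. In all 6 genes the 4 KO livers lie above the 5 WT livers, and Col3a1 is the most abundant at 42.3 to 58.9 in KO and 6.36 to 11.7 in WT livers.

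Col1a1 rose by a larger proportion than Col1a2 and Col3a1. Both ratios given here hold Col1a1, so they are not independent, and Col3a1 over Col1a2 was not tested. Col1a1 over Col1a2, a ratio within a liver that does not depend on its scaling, was 0.474, 0.505, 0.438 and 0.400 in KO livers, against 0.286, 0.273, 0.297, 0.354 and 0.296 in WT livers. The mean ratio was 0.454 ± 0.0453 in KO livers and 0.301 ± 0.0312 in WT livers, higher in KO (exact two-sided permutation test over 126 splits, p = 0.0159, the smallest possible, and 0.0238 adjusted over 3 ratios). Col3a1 over Col1a1 was 5.81, 6.02, 6.03 and 6.25 in KO livers, against 8.49, 8.43, 7.30, 7.86 and 8.50 in WT livers. Here the KO ratio was the lower one, at 6.03 ± 0.179 in KO livers and 8.11 ± 0.529 in WT livers (SD, n = 4 and 5; exact permutation p = 0.0159, adjusted 0.0238). The deposited transcripts of these genes are protein coding, and in males alone, 3 KO against 2 WT, the exact test cannot go below 0.2.

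Of the other 5 fibrillar genes, all under the filter, Col27a1 ranged over 0.741 to 1.16 in KO livers and 0.644 to 1.11 in WT livers, and the groups overlapped (q = 0.898 in the authors' deposited table). Col24a1, Col11a1, Col11a2 and Col2a1, the last a cartilage collagen, stayed at or below 0.254 in every liver, and their listed transcripts are not protein coding.

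Start regions of 51 members were matched by symbol in RefSeq (GRCm38.p6, 250 bases before the annotated start to 50 after it). Col3a1 and Col1a2 are shown because they are the most abundant fibrillar members and rose together, although their start regions hold different ones of the motifs searched. Capitals mark the motif CCAAT, the motif TATAAA or the motif GGGCGG on either strand. The Col3a1 window is chr1:45311288-45311587 on the plus strand and the Col1a2 window is chr6:4505368-4505667 on the plus strand.
Col3a1: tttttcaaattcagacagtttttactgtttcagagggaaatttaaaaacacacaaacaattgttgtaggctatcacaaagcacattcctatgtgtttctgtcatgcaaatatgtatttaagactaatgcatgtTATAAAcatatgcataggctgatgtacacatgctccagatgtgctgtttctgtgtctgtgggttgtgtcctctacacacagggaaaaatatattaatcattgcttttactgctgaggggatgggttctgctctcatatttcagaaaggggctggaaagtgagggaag
Col1a2: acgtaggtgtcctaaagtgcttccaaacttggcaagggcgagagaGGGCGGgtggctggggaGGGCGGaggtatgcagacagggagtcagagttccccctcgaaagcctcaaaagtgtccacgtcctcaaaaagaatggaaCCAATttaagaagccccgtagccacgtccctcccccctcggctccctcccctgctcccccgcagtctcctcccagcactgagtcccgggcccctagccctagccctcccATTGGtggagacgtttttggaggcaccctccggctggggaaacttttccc
The Col3a1 window holds TATAAA alone of the 3 motifs, and the Col1a2 window holds the motif CCAAT on both strands and also the motif GGGCGG. The motif CCAAT was in 29.1% of the 55 member windows and in 37.4% of all 32851 windows of this length. The motif TATAAA was in 12.7% of member windows and 13.6% of all windows, and the motif GGGCGG in 63.6% and 35.7%. No test was made of these shares, and a match is only a match of letters.

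In the basement membrane group, 7 of the 9 tested members were higher in KO livers and 0 were lower, and the median log2 fold change was 0.99. Lamb2, which was called, and Lama4, which was not, averaged under 1 in WT livers (0.570 and 0.868) and passed the filter through KO livers. Nid1, Col4a1 and Col4a2 had the largest log2 fold changes, of value + 1, among the tested members of the group. By ratio of means Lamb2 was the largest of them, at 4.00-fold. Summed over the 20 genes of the group, the abundance was 66.9, 64.7, 77.4 and 61.5 in KO livers, against 27.8, 23.4, 22.2, 27.8 and 25.4 in WT livers. No KO liver overlapped a WT liver, and the ratio of means was 2.67.

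Col4a1 and Col4a2 encode the common chains of type IV collagen, the meshwork of basement membranes. Col4a1 had 15.4, 17.8, 19.9 and 16.0 in KO livers, against 6.09, 4.38, 4.72, 5.96 and 6.95 in WT livers, which is 3.08-fold (adjusted p = 3.53e-05, limma). Col4a2 had 7.28, 8.05, 9.55 and 7.96 in KO livers, against 3.23, 2.65, 2.35, 3.30 and 2.36 in WT livers, which is 2.96-fold (adjusted p = 3.15e-05, limma). Each kept the groups apart. The ratio of Col4a1 to Col4a2 was 2.11 ± 0.0803 in KO livers and 2.06 ± 0.510 in WT livers (SD, n = 4 and 5; exact permutation p = 0.746). Without WT replicate 5, whose ratio was 2.94, the exact p was 0.0286, so that liver decides this value.

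The pair lies head to head on mouse chromosome 8 (GRCm38): the listed Col4a1 transcript runs from 11198423 to 11312826 on the minus strand and the Col4a2 transcript from 11312805 to 11449287 on the plus strand, overlapping by 22 bases. Their start regions are shown because the 2 transcripts overlap at their starts. The windows are chr8:11312777-11313076 on the minus strand and chr8:11312555-11312854 on the plus strand, which overlap, with capitals as above.
Col4a1: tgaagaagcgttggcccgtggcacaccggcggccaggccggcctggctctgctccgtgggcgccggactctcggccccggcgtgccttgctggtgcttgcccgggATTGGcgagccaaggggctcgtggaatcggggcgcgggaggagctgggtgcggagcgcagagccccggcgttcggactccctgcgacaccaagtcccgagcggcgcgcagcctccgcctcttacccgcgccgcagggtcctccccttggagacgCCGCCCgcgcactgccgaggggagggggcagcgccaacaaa
Col4a2: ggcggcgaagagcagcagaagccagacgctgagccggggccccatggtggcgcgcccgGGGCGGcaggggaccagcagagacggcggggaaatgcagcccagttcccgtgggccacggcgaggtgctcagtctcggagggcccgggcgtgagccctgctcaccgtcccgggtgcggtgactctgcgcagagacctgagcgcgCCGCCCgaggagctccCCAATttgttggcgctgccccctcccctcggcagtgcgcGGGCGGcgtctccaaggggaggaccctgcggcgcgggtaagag
Each window holds the motif CCAAT and the motif GGGCGG on 1 strand or the other, and neither holds the motif TATAAA. A library that does not mark strand cannot divide reads over the 22 shared bases between the genes, and no label states whether the library marked strand.

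Col4a3 and Col4a4, the chains of the specialised type IV network of kidney and lung, form a second head-to-head pair, on chromosome 1 with 126 bases between the transcripts. Both were under the filter. Col4a3 had 0.296, 0.674, 0.552 and 0.565 in KO livers, against 0.0952, 0.119, 0.168, 0.0956 and 0.122 in WT livers, and Col4a4 had 0.253, 0.397, 0.359 and 0.446 in KO livers, against 0.0814, 0.0948, 0.0598, 0.114 and 0.0928 in WT livers. All KO livers were above all WT livers in both, with folds of 4.35 and 4.11 and q of 0.000305 and 0.00131 in the authors' deposited table. Col4a5 ranged over 0.559 to 1.04 in KO livers and 0.105 to 0.726 in WT livers and overlapped, and Col4a6 did not exceed 0.0721 in any liver.

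Nidogens tie laminin to type IV collagen. Nid1 had 19.9, 12.0, 16.5 and 14.1 in KO livers, against 5.22, 3.86, 4.37, 4.03 and 3.60 in WT livers, which is 3.70-fold (adjusted p = 3.28e-05, limma). Its KO female had the highest value, and the groups were apart. Its relative Nid2 had 2.63, 1.73, 2.80 and 1.90 in KO livers, against 2.02, 1.15, 1.50, 1.78 and 2.43 in WT livers; these overlapped, and the 1.28-fold difference did not pass (adjusted p = 0.274, limma). The difference between the Nid1 and Nid2 effects was not tested.

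Laminins are trimers of an alpha, a beta and a gamma chain. The gamma chain Lamc1 had 5.22, 4.36, 5.87 and 3.25 in KO livers, against 2.98, 2.26, 1.79, 2.56 and 1.65 in WT livers, which is 2.08-fold (adjusted p = 0.00502, limma; 0.0712 in males alone). The beta chain Lamb2 had 2.04, 2.46, 2.69 and 1.94 in KO livers, against 0.643, 0.691, 0.633, 0.510 and 0.374 in WT livers, which is 4.00-fold (adjusted p = 0.000114, limma). Lamb1, the other tested beta chain, ranged over 3.29 to 4.64 in KO livers and 1.20 to 1.87 in WT livers, which is 2.62-fold (adjusted p = 0.000259, limma). In all 3 the groups were apart. Lama4, an alpha chain of vessel walls, ranged over 0.830 to 1.72 in KO livers and 0.409 to 1.16 in WT livers, overlapped and did not pass (adjusted p = 0.219, limma).

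Hspg2, the proteoglycan perlecan, had 3.51, 4.84, 5.46 and 3.58 in KO livers, against 1.82, 2.74, 1.87, 2.69 and 2.52 in WT livers. The groups were apart, at 1.87-fold (adjusted p = 0.00562, limma). The listed transcript is a non-coding form of the gene, the adjusted p was 0.0606 in males alone, and the q of the authors' deposited table was 0.236.

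Among the laminin chains under the filter, Lama2 and Lamc3 kept every KO liver above every WT liver and had a q of at most 0.05 in the authors' deposited table. Lama2, the chain of muscle and nerve laminin, was the more abundant, with 1.38, 1.70, 1.80 and 1.24 in KO livers, against 0.470, 0.368, 0.401, 0.429 and 0.271 in WT livers (3.95-fold; q = 1.63e-19). Lamc3 ranged over 0.615 to 0.785 in KO livers and 0.0345 to 0.160 in WT livers (q = 0.0155). Lama1, Lama3, Lama5 and Lamb3 overlapped between the groups, and the authors' deposited table gives none of them a q at or under 0.05.

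**Figure D3:**
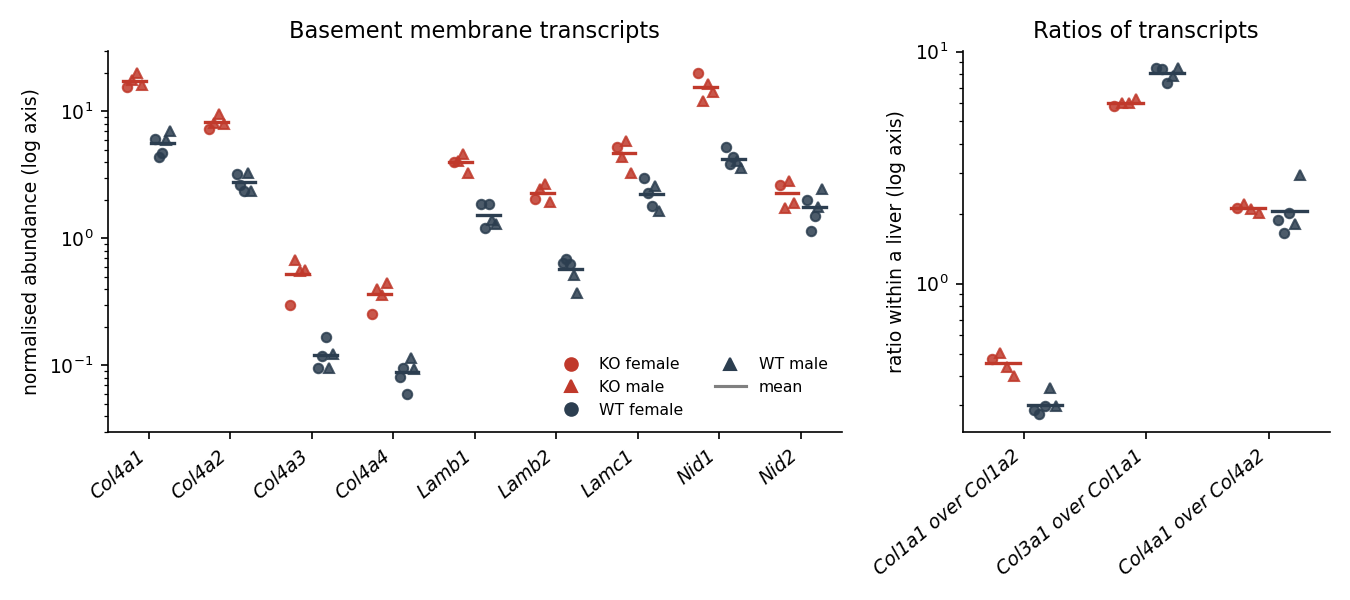
Left, normalised abundance (log axis) of 9 basement membrane genes in each liver; right, 3 ratios of collagen transcripts within a liver (log axis). KO stands left of WT, circles are females, triangles males and bars means. Col4a1, Col4a2, Col4a3 and Col4a4 keep the groups apart, Nid2 does not, and the Col4a1 to Col4a2 ratio of WT replicate 5, at 2.94, stands above the rest.

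Among the other collagens all 7 tested members were higher in KO livers, with a median log2 fold change of 1.12 and folds from 1.43 to 8.12. Of these, Col6a2, Col6a3, Col6a5 and Col15a1 averaged under 1 in WT livers (0.732, 0.702, 0.253 and 0.734). They passed the filter through KO livers, so the count and the top of the range are not neutral. The 4 type VI chains tested had folds above 3, and Col18a1, the most abundant collagen of these livers, had the smallest. Col18a1, whose product carries the endostatin fragment and is made by hepatocytes as well as vessels, had 77.9, 95.8, 84.7 and 97.0 in KO livers, against 58.8, 63.4, 59.5, 65.9 and 63.2 in WT livers. The groups were apart, at 1.43-fold (log2 fold change 0.50 ± 0.08 (SE); adjusted p = 0.00142, limma).

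Type VI collagen forms beaded microfibrils around cells. Col6a1 had 3.75, 4.76, 5.99 and 4.46 in KO livers, against 1.84, 1.79, 1.85, 1.29 and 0.804 in WT livers, which is 3.13-fold (adjusted p = 0.000545, limma). Col6a2 had 2.33, 2.99, 3.20 and 2.57 in KO livers, against 0.792, 0.513, 0.767, 0.831 and 0.757 in WT livers, which is 3.79-fold (adjusted p = 6.27e-05, limma). Both kept the groups apart, and the WT males were lowest for Col6a1 but not for Col6a2. Col6a5 had 1.77, 1.83, 2.27 and 2.33 in KO livers, against 0.300, 0.297, 0.224, 0.229 and 0.214 in WT livers, the largest fold among the tested collagens at 8.12 (adjusted p = 2.09e-05, limma). Col6a3 had 3.95, 6.57, 5.85 and 4.72 in KO livers, against 1.10, 0.580, 0.729, 0.852 and 0.251 in WT livers, which is 7.51-fold (adjusted p = 4.97e-05, limma), but its listed transcript is a retained-intron form of 646 bases. That value therefore may not stand for the coding transcript.

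Col14a1, a collagen that binds to the surface of type I fibres, had 7.52, 10.5, 11.7 and 11.4 in KO livers, against 5.33, 5.18, 5.83, 6.63 and 5.68 in WT livers, which is 1.79-fold (adjusted p = 0.00170, limma). The KO female was lowest of its group and still above every WT liver. Col15a1, a relative of Col18a1 beside basement membranes, ranged over 1.59 to 3.11 in KO livers and 0.542 to 0.939 in WT livers, which is 3.29-fold (adjusted p = 0.00162, limma; q = 0.0633 in the authors' deposited table).

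The other 20 members of the group were under the filter, with means of at most 0.989. Col16a1, Col8a1, Col8a2 and Col23a1 kept every KO liver above every WT liver, and none of these 4 has a q of at most 0.05 in the authors' deposited table. They are 4 of 20, and 19.0% of all tested transcripts showed the same pattern. Col8a1, a short-chain network collagen, was at 0.284 to 0.507 in KO livers and 0.0851 to 0.233 in WT livers (q = 0.0632). Col12a1, Col13a1, Col20a1, Col26a1, Col28a1, Col6a6, Col9a2 and Col9a3 overlapped between the groups. Col7a1, Col10a1, Col17a1, Col19a1, Col22a1, Col25a1 and Col6a4 overlapped too, each with a mean below 0.1, and Col9a1 was listed at 0 in every liver.

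Of the 11 enzymes 6 were tested, and 4 of these were higher in KO livers, with 0 lower. Among the 4, P4ha1 and Loxl1 averaged under 1 in WT livers (0.455 and 0.281) and passed the filter through KO livers. The enzymes hydroxylate proline and lysine or crosslink the fibres, and the ratios of means ranged from 1.02 for Plod1 to 10.2 for P4ha1. Summed over the 11 genes the abundance was 32.6, 31.5, 33.5 and 31.5 in KO livers, against 19.6, 17.1, 20.0, 18.2 and 18.8 in WT livers. The KO livers were all above the WT livers, with a ratio of means of 1.72.

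P4ha1 encodes the catalytic subunit of prolyl 4-hydroxylase, which makes the hydroxyproline that stabilises the collagen triple helix. It had 4.77, 4.62, 3.57 and 5.70 in KO livers, against 0.642, 0.00150, 1.18, 0.434 and 0.0189 in WT livers. The means were 4.66 ± 0.872 in KO livers and 0.455 ± 0.489 in WT livers, a log2 fold change of 2.01 ± 0.24 (SE) (adjusted p = 0.000208, limma; q = 0.0104 in the authors' deposited table). The fold was 10.2, and 17 without WT replicate 3, the highest WT liver. WT values varied widely, and WT replicates 2 and 5 were near 0, where the lowest value stands for only 0.0565 estimated reads. The listed transcript is 1 of 3 annotated, and the others are not in these values. P4ha2, the second catalytic subunit, was under the filter at 0 to 0.583 in KO livers and 0.128 to 1.73 in WT livers, overlapping between the groups, and P4ha3 was at or below 0.120.

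Lysyl hydroxylases prepare lysines for sugar attachment and crosslinks. Plod1 did not pass the test, with 7.98, 8.83, 9.06 and 9.40 in KO livers and 8.69, 9.14, 9.13, 8.27 and 7.90 in WT livers (adjusted p = 0.799, limma), and its result moved with the scaling: the log2 fold change was -0.01 by median of ratios and 0.39 at equal totals, where it was called higher (adjusted p = 0.0247, limma). The median over all transcripts tested at equal totals was 0.36, and 45.0% were called higher. Plod3 had 6.57, 7.33, 6.96 and 6.80 in KO livers, against 4.80, 4.64, 5.05, 5.49 and 5.53 in WT livers, which is 1.36-fold (adjusted p = 0.00360, limma; 0.0997 in males alone). Its groups were apart, with 6.57 the lowest KO value and 5.53 the highest WT value. Plod2, the form that makes the crosslinks of scar collagen, was under the filter, with 0.972 to 1.53 in KO livers and at most 0.00355 in WT livers. The authors' deposited table gives no q for its listed transcript, 1 of 5 annotated.

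Lysyl oxidases crosslink collagen and elastin outside the cell. Loxl1, which acts on elastic fibres, had 1.69, 2.31, 2.80 and 1.85 in KO livers, against 0.254, 0.184, 0.302, 0.443 and 0.225 in WT livers, which is 7.69-fold (adjusted p = 7.86e-05, limma). Loxl2, which crosslinks type IV collagen, had 2.34, 2.65, 3.94 and 2.93 in KO livers, against 1.20, 1.00, 0.942, 1.13 and 0.790 in WT livers, which is 2.92-fold (adjusted p = 0.000416, limma). Both kept the groups apart. Loxl4 had 5.51, 2.21, 2.87 and 2.16 in KO livers, against 1.34, 0.835, 1.59, 0.647 and 3.48 in WT livers; the groups overlapped through WT replicate 5, and the 2.02-fold difference did not pass (adjusted p = 0.0992, limma). Without WT replicate 5 the adjusted p was 0.0177, and across the livers left out in turn it reached 0.242 (limma). Without KO replicate 1, the highest KO liver, the fold was 1.53. In males alone the adjusted p was 0.617 (limma).

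Lox, the founding member of the family, was under the filter at 1.14 to 1.84 in KO livers and 0.274 to 0.502 in WT livers. Its groups did not overlap, the fold was 3.78, and its q was 0.000268 in the authors' deposited table. Loxl3 ranged over 0.423 to 0.608 in KO livers and 0.313 to 0.470 in WT livers, which overlap.

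**Figure D4:**
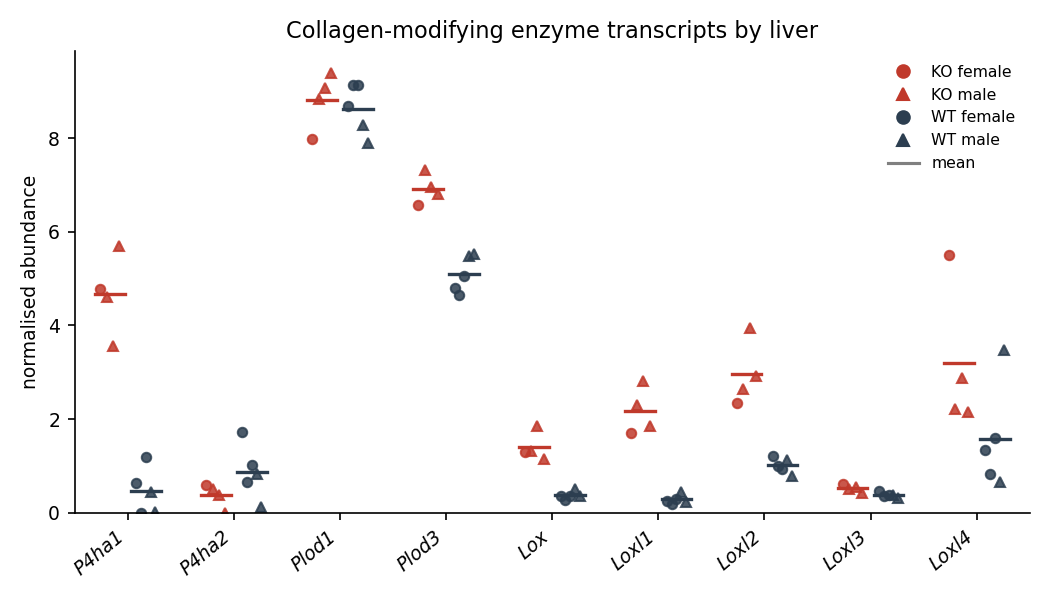
Normalised abundance (linear axis) of 9 collagen-modifying enzymes in each liver, KO left of WT; circles are females, triangles males and bars means. P4ha1 lies at 3.57 to 5.70 in KO and 0.00150 to 1.18 in WT livers, Plod1 overlaps between the groups, and the lysyl oxidases Lox, Loxl1 and Loxl2 keep the groups apart while Loxl4 does not.

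The matrix glycoproteins and proteoglycans of the list were all tested, and 4 of 5 were higher in KO livers, with a median log2 fold change of 1.18. Among the 4, Fbn1 averaged under 1 in WT livers (0.509) and passed the filter through KO livers. Sparc, a collagen-binding secreted protein, had 101, 92.6, 99.5 and 98.2 in KO livers, against 47.6, 34.6, 41.2, 49.3 and 41.9 in WT livers, which is 2.28-fold (adjusted p = 3.43e-05, limma). Bgn, the small proteoglycan biglycan, had 63.3, 62.7, 69.2 and 57.4 in KO livers, against 27.2, 23.9, 24.6, 23.6 and 23.7 in WT livers, which is 2.57-fold (adjusted p = 3.06e-06, limma). These were tight within each group, and the groups lay far apart.

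Lum, the small proteoglycan lumican that spaces collagen fibrils, had 49.0, 38.1, 50.3 and 46.7 in KO livers, against 11.7, 11.9, 17.8, 10.1 and 9.28 in WT livers, which is 3.79-fold (adjusted p = 4.23e-05, limma). Fbn1, the fibrillin of elastic microfibrils, had 1.87, 2.24, 2.93 and 1.99 in KO livers, against 0.597, 0.376, 0.540, 0.546 and 0.487 in WT livers, which is 4.43-fold (adjusted p = 0.000113, limma). Both kept the groups apart. Fn1, fibronectin, a plasma protein of hepatocytes as well as a matrix protein, had 54.9, 68.8, 53.4 and 126 in KO livers, against 51.3, 52.6, 87.3, 55.8 and 73.6 in WT livers. These overlapped, and the 1.18-fold difference did not pass (adjusted p = 0.632, limma); its listed transcript is a retained-intron form, and without KO replicate 4 the log2 fold change was -0.09.

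For 21 of the 28 called members KO replicate 3 held the highest KO value, and for 18 of the 28 the female, KO replicate 1, held the lowest. In males alone, 25 of the 28 kept an adjusted p of at most 0.05 (limma); the exceptions were Lamc1, Hspg2 and Plod3. With sex as a covariate 28 members were called higher. By the authors' deposited table, 26 of the 33 tested members had a q of at most 0.05 and were higher in KO, where 13.6% of its 13540 transcripts with a q were, and all 26 were also called here.

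The proteins that fold, export and trim collagen were mixed. Of 25 listed genes 16 were tested, and 8 were higher and 1 was lower in KO livers. Among the higher ones Ctsk and P3h3 averaged under 1 in WT livers (0.973 and 0.649) and passed the filter through KO livers. Over all transcripts tested, 21.4% were higher and 14.5% were lower. Serpinh1, the collagen chaperone of the endoplasmic reticulum, ranged over 18.2 to 22.3 in KO livers and 4.86 to 6.84 in WT livers, which is 3.33-fold (adjusted p = 7.35e-06, limma). Pcolce, which speeds removal of the procollagen C-terminal end, was 2.96-fold higher, and Adamts2, which removes the N-terminal end, 2.52-fold (adjusted p = 0.000174 and 0.000896, limma). Ctsk, a collagen-degrading protease, was 2.85-fold higher (adjusted p = 0.000407, limma).

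The general folding factors P4hb, the partner of the prolyl hydroxylase subunits, and Ppib did not pass. P4hb was at 376 ± 30.8 in KO livers and 388 ± 25.3 in WT livers (SD, n = 4 and 5; adjusted p = 0.683, limma). Ppib was at 279.5 ± 27.3 in KO livers and 311 ± 39.1 in WT livers (adjusted p = 0.330, limma). These 2, like Mia2 and Mia3, had a negative log2 fold change on the deposited scale and a positive one at equal totals, where P4hb was called higher (log2 fold change 0.35, adjusted p = 0.0342, limma) and the other 3 were not called. At equal totals the median over all transcripts tested was 0.36, and 45.0% were called higher. Sec23a, of the secretory vesicle coat, was the lower one at 29.0 to 31.8 in KO livers and 34.1 to 38.3 in WT livers (log2 fold change -0.26, adjusted p = 0.0123, limma), but at equal totals its log2 fold change was 0.13 and it was not called.

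A further list held small leucine-rich proteoglycans, elastic fibre genes and other matrix and basement membrane genes outside the symbol rule. Of its 33 genes 18 were tested, with 12 higher and 0 lower, where 21.4% of all transcripts tested were higher. Among the higher ones Mfap4 and Thbs2 averaged under 1 in WT livers (0.614 and 0.574) and passed the filter through KO livers. Eln, elastin, had 13.3, 16.9, 20.4 and 11.0 in KO livers, against 2.37, 2.29, 1.92, 2.47 and 1.97 in WT livers, which is 6.98-fold (adjusted p = 7.7e-06, limma). Mfap4, of elastic microfibrils, was 9.54-fold higher, Efemp2, which guides elastin assembly, 4.38-fold and Emilin1, an elastic fibre glycoprotein, 2.78-fold (adjusted p = 1.1e-05, 3.4e-05 and 2.43e-05, limma). Dcn, decorin, the most abundant small proteoglycan here, ranged over 143 to 196 in KO livers and 88.0 to 174 in WT livers and did not pass (adjusted p = 0.144, limma; 0.0233 at equal totals). Of the receptors for collagen and laminin, 10 of 18 were tested, with 5 higher and 0 lower, beside the same 21.4% of all transcripts. Among the higher ones Ddr1, Itga3 and Itga6 averaged under 1 in WT livers (0.167, 0.695 and 0.720). They passed the filter through KO livers, so this count is not neutral. Bcam, a laminin receptor, was 3.47-fold and Itga6, a laminin-binding integrin chain, 3.47-fold higher (adjusted p = 1.39e-05 and 0.000387, limma). Ddr1, a collagen-activated kinase, was at 1.36 to 4.27 in KO livers and 1.56e-06 to 0.498 in WT livers (adjusted p = 0.000854, limma), and Sdc1, a cell-surface proteoglycan, was 1.55-fold higher (adjusted p = 0.0189, limma). Itgb1, the shared beta chain of these integrins, did not pass, at 86.5 ± 5.70 in KO livers and 86.1 ± 5.37 in WT livers (adjusted p = 0.960, limma). At equal totals it was called higher (adjusted p = 0.0175, limma), as were 45.0% of all transcripts tested.

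Markers of the cells that make matrix were mostly higher too, where 21.4% of all transcripts tested were higher. Some are matrix genes themselves: Eln, Fbln2, Thbs2 and Ecm1 also stand in the list of proteoglycans and elastic fibre genes above. The tested markers Des, Thbs2, Thy1 and Msln averaged under 1 in WT livers (0.957, 0.574, 0.594 and 0.981) and passed the filter through KO livers. Of 11 stellate cell markers, all tested, 8 were higher and 0 lower, with Cygb 4.24-fold and Pdgfrb 2.72-fold higher (adjusted p = 6.75e-06 and 0.000195, limma). All 5 tested of 6 markers of activated stellate cells or myofibroblasts were higher, with sums of 31.3 to 40.2 in KO livers and 11.4 to 19.4 in WT livers. Of 6 portal fibroblast markers 4 were tested, and Eln, Entpd2 and Thy1 were higher while Msln did not pass. In the sum of each of these 3 lists every KO liver lay above every WT liver, and the smooth muscle actin Acta2 was at 2.67 to 4.35 in KO livers and 1.03 to 2.06 in WT livers.

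Other cell types were not alike. Over all transcripts tested, 21.4% were higher and 14.5% were lower. Of 8 endothelial markers 7 were tested, and Cdh5 was higher and Lyve1 lower, the second a call lost at equal totals (adjusted p = 0.0661, limma), with overlapping sums of 58.1 to 71.9 in KO livers and 54.6 to 75.8 in WT livers. All 6 Kupffer cell and macrophage markers were higher, with sums of 218 to 291 in KO livers and 143 to 201 in WT livers. Of 7 cholangiocyte and progenitor markers 5 were tested and 4 were higher, with sums of 561 to 935 in KO livers and 37.1 to 62.4 in WT livers, mostly Spp1. Among the higher ones Epcam, Krt19 and Sox9 averaged under 1 in WT livers (0.885, 0.520 and 0.582) and passed the filter through KO livers. Of 7 hepatocyte markers, which were present in every liver, 0 were higher and Apoa1 was lower, a call that was lost at equal totals, with overlapping sums of 48508 to 66688 in KO livers and 44267 to 109147 in WT livers. No marker of these lists was at 0 in all 9 livers. The part of these other cell types was not tested either.

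**Figure D5:**
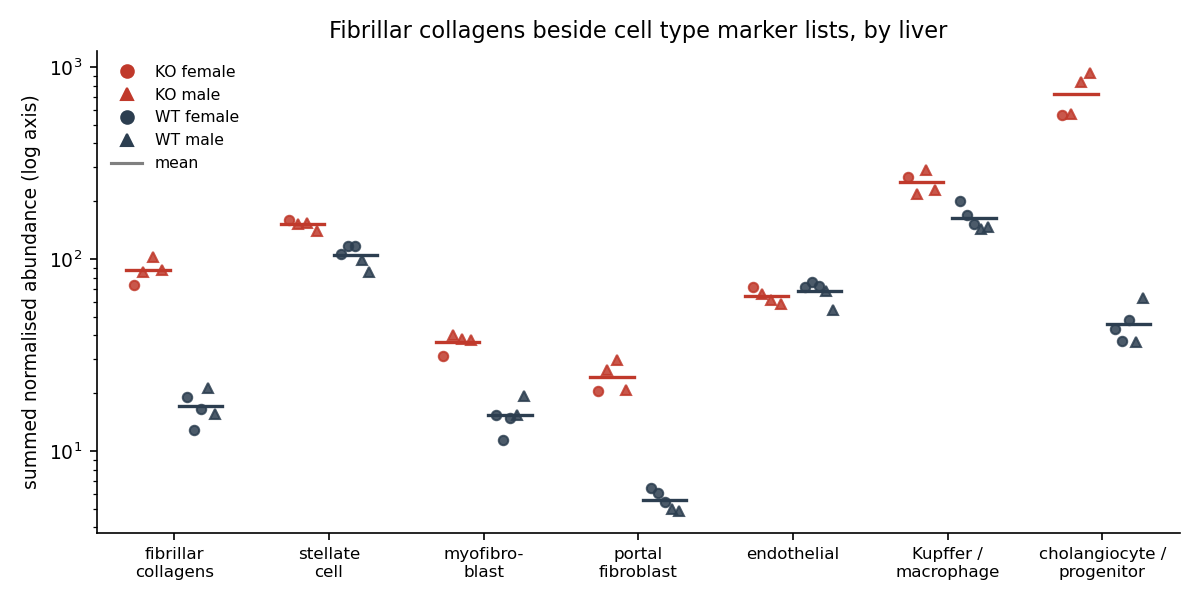
Summed normalised abundance (log axis) of the 11 fibrillar collagens and of 6 cell type marker lists in each liver, KO left of WT; circles are females, triangles males and bars means. Fibrillar collagen sums are 73.5 to 102 in KO and 12.9 to 21.3 in WT livers. The portal fibroblast, myofibroblast, stellate, Kupffer and macrophage, and cholangiocyte and progenitor lists are also apart, and the endothelial list overlaps.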

How the data were processed

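Liver polyA RNA of 4 KO and 5 WT mice was analysed from 1 deposited table. The authors ran kallisto and sleuth on mm10, per the submitters' processing notes, which here give neither versions, filters nor how 1 transcript per gene was chosen. The deposited library columns were read as a normalised signal, since their sums differ between libraries. The authors' p-value and q-value columns and their coefficient, on a natural log scale as WT minus KO per the values, were used as an alternative, with the sign turned to KO minus WT. Transcript types came from GENCODE M21, which held 98.6% of listed transcripts.

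Here log2(value + 1) of the 10950 transcripts with a mean of at least 1 was tested with limma 3.58.1 (R 4.3.3), genotype as the only term and a variance trend, and Benjamini-Hochberg adjustment over all of them. The log2(value + 1) scale understates changes of low transcripts, and folds are ratios of means. Depth came from steps between low values, of which 74.4% to 79.5% were whole within 0.1 read, too few for a count test. Ratios were tested by exact permutation. Both tests were tried on simulated data. Members and lists were chosen with earlier results of these data known. Genes were named by rule: the 5 most abundant and up to 4 with the smallest adjusted p of each group, any with q of at most 0.05 under the filter, and up to 4 a side from other lists; other names in the text were chosen after their values were seen. A gene that this rule would name is not reported here. Alternatives were pseudocounts, filters, scalings, leaving out libraries, sex, a replicate block, no trend, a stricter threshold and the authors' test.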

Additional observations from a re-analysis of the deposited data

Results flagged for a closer look

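Of 72 groups of livers examined (each tested member and ratio in KO and in WT), 7 had 1 liver far from the rest by Dixon's criterion, where chance gives about 1 in 20. KO replicate 3 was highest for Col5a2 at 5.12 and for Col5a1 at 3.20. KO replicate 1, the female, was lowest for Col5a3 at 1.24, and WT replicate 5 was highest for the same gene at 0.894. WT replicate 1 was highest for Bgn at 27.2, and WT replicate 2 was lowest for Col6a2 at 0.513. The ratio of Col4a1 to Col4a2 in WT replicate 5 was 2.94, the highest of its group. In none of the 6 gene values did the stray liver close the gap between KO and WT livers.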

How the results depend on the processing

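The count of members higher in KO, 28, was 28 under both other pseudocounts, median of ratios, sex as a covariate, no trend and an adjusted p of 0.01, and 25 to 33 in the other fits apart from 2 filters. With no filter it was 40 of 73 (basement membrane 12, other collagens 12), where 3239 of all 21285 transcripts tested were higher. At a minimum mean of 5 it was 11 of 13 (fibrillar 2, basement membrane 3, other collagens 2, enzymes 1), where 1231 of all 6659 were higher. With protein-coding transcripts only, tried only once the values were known, it was 26 of 30, where 2284 of all 9977 were higher. Leaving out each liver in turn gave 28 to 29 members, 4 to 5 enzymes, 6 fibrillar, 7 basement membrane, 7 other collagens and 4 glycoproteins and proteoglycans. Members lower in KO were 0 in each of these fits. Signs turned for Plod1 (-0.0129 by median of ratios, -0.0132 by the authors' deposited test, and -0.000516 to 0.0700 across livers left out) and Fn1 (-0.0943 to 0.313 across livers left out, lowest without KO replicate 4), neither of them called on the deposited scale; the cause was not tested. On the log2 scale the Col1a1 to Col1a2 ratio was 0.54 to 0.65 and Col3a1 to Col1a1 -0.46 to -0.41 across livers left out; in males alone they were 0.46 and -0.42 (p = 0.2 each by the exact test, the smallest possible). Col4a1 to Col4a2 was -0.13 in males alone and -0.00758 to 0.20 across livers left out. With the replicate block 29 members were higher, which added Loxl4; this fit has no partner for WT replicate 5. Same-numbered livers deviated together with correlations of 0.229, 0.0823, -0.184 and 0.113. So few values cannot decide whether the numbers pair the animals or whether some of them shared a litter. All transcripts gave 2345 higher and 1589 lower as deposited, 4926 and 298 at equal totals, and 1408 and 808 in males alone. A planned search for seed matches of the microRNA was not run. The filter is on abundance per length, not reads: under it, Col27a1 had a median of 113 estimated reads, while tested Col6a3 had 8.88. Of the 41 members under the filter 17 had means below 0.1. The portal fibroblast sum without Eln, tried only once its values were known, had a ratio of means of 2.69, against 4.39 with it.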
